A study of Homo sapiens with 4 samples.

Results

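The clustered protocadherins are the members of the alpha, beta and gamma protocadherin clusters on chromosome 5. They were taken as all genes whose symbol has the form PCDHA, PCDHAC, PCDHB, PCDHGA, PCDHGB or PCDHGC followed by a number. The rule found 53 of the 28278 genes in the deposited table, 15 in the alpha, 16 in the beta and 22 in the gamma cluster. Of these, 42 had a count in at least 1 library, 8 alpha, 15 beta and 19 gamma members, and the other 11 were at 0 in all 4 libraries. The members at 0 were PCDHA2, PCDHA3, PCDHA4, PCDHA6, PCDHA8, PCDHA9, PCDHA12, PCDHB1, PCDHGC3, PCDHGC4 and PCDHGC5.

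The study measured polyA RNA by sequencing in cells labelled HepG2, an established human hepatocellular carcinoma line. The cells had been infected with lentivirus that carried a short hairpin RNA, and every culture was then kept for 48 hours in 10 µM sorafenib, which inhibits several kinases. There was 1 library from cells with a Control hairpin, 1 from each of 2 hairpins against ATF7IP (hairpins 1 and 2), and 1 from cells with a hairpin against SETDB1. No library came from cells without sorafenib or without virus. SETDB1 is a methyltransferase that places the repressive mark trimethylation of histone H3 lysine 9, and ATF7IP is its partner protein. The labels do not say whether the 2 ATF7IP libraries came from separate infections, so their spread covers the hairpin, the culture and the library together.

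Values are deposited estimated counts, or counts per 1000000 (CPM) on library sizes scaled by trimmed mean of M values. Each run of 4 values starts with Control, goes on with ATF7IP hairpins 1 and 2, and ends with SETDB1 knockdown. Library totals lay between 70236882 and 73791097 counts. The ATF7IP level was 59.1, 18.3, 18.8 and 97.8 CPM, and the SETDB1 level was 47.7, 52.1, 46.7 and 11.99 CPM, so each targeted gene was lowest in the libraries labelled for it. The log2 fold change from Control was -1.67 ± 0.24 for ATF7IP and -1.99 ± 0.31 for SETDB1 in their own knockdown (adjusted p = 0.0571 and 0.117, edgeR with Benjamini-Hochberg), so neither passed 0.05. The liver markers went against the labelled cell type. Of 14 hepatocyte markers, 12 were at or under 12 counts in every library, and ALB, APOB, APOH, TTR, AFP and FGA were at 0 in all 4. The summed level of the 14 was 0.690, 0.468, 0.729 and 0.900 CPM. Of 15 neuron markers, 7 were at or under 12 counts in all 4 libraries, and DCX, STMN2, ELAVL4, GAP43 and INA were at 0. The summed neuron marker level was 51.4, 42.4, 47.9 and 49.3 CPM. Most of it came from SNAP25 (18.4, 11.5, 15.8 and 10.1 CPM), MAP2 (18.3, 17.3, 21.1 and 20.2 CPM) and TUBB3 (11.8, 11.9, 9.08 and 15.9 CPM). SYT1 was at 1.96, 0.468, 0.521 and 1.66 CPM, low in both hairpins. Of 9 fibroblast markers, 3 were at or under 12 counts in every library, and the summed level was 468, 252, 212 and 286 CPM, highest in Control. The cells are called by their library labels below.

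Clustered protocadherins are cadherin-like adhesion proteins of the cell surface, known above all from neurons. In the alpha and gamma clusters each variable first exon has its own promoter and is spliced to constant exons shared by the whole cluster, while each beta gene is a single exon without a shared constant part. Single neurons are known to use a small, largely random subset of these promoters, with the C-type genes at the ends of the alpha and gamma clusters used more uniformly. Promoter use is known to involve CTCF and cohesin, DNA methylation and repressive histone marks, and SETDB1 has been linked to the silencing of these clusters in mouse neurons. The proteins bind to copies of themselves on neighbouring cells.

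Most promoters of the clusters carry a short conserved sequence element with the core CGCT, which is shown first as background on the separate promoters. The counts below are totals per gene, and the use of each start site was not measured. RefSeq promoter windows of 300 bases on GRCh38.p14, from 250 bases before to 50 after the gene start, matched 47 of the 53 members. PCDHA3, PCDHA13, PCDHB6, PCDHB11, PCDHGA12 and PCDHGC5 had no match, and 5 genes had 2 starts. Each motif was searched on both strands, was chosen after these windows had been read, and the 3 longer ones contain CGCT. The gamma motif is CGCTGT with those of the 4 bases before it that at least 90% of the gamma windows holding it share. The stretches below are 30 bases of the plus strand, 5′ to 3′, with the cluster's own motif in capitals. They were picked from the members that carry it, and include the C-type gene PCDHGC3, which was at 0. The windows of PCDHAC2, PCDHGA11 and PCDHGB7, which are among the members of highest level in their clusters, do not hold their cluster's longer motif.
PCDHA1 chr5:140786088-140786117: tggccacatgaTGTCGCTgtacaccacaaa
PCDHA11 chr5:140868885-140868914: taggcgcaaggTGTCGCTctttacttggtg
PCDHB2 chr5:141094545-141094574: agagacgcggGGTGGCGCTgcagccttaga
PCDHB13 chr5:141213866-141213895: gaggacgcgtGGTGGCGCTgcaggataaga
PCDHB14 chr5:141223264-141223293: ggagacacatGGTGGCGCTacaggataaga
PCDHB15 chr5:141245315-141245344: gacaacgcatGGTGGCGCTgcaggctaagg
PCDHB16 chr5:141182311-141182340: gagaacgcgtGGTGGCGCTgcaggttaaga
PCDHGB1 chr5:141350027-141350056: caacctctggGCGCCGCTGTcgaccaaaag
PCDHGB2 chr5:141359923-141359952: aaacctctgaGCGTCGCTGTtggtcaaaag
PCDHGA6 chr5:141373837-141373866: aggactctaaGCGTCGCTGTtgaccaacct
PCDHGA9 chr5:141402716-141402745: aggactctgaGCGCCGCTGTtgatcaactc
PCDHGA10 chr5:141412933-141412962: aggactctgaGCGCCGCTGTtcacctacta
PCDHGC3 chr5:141475882-141475911: gggactctgtGTGCCGCTGTcggccaatga

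The core CGCT was in 12 of 13 alpha, 14 of 14 beta and 20 of 20 gamma genes with a window, but also in 70.01% of all 35116 RefSeq windows of this length. The longer forms were rarer. TGTCGCT was in 10 of 13 alpha genes, 1 of 14 beta and 3 of 20 gamma genes, and in 1.76% of all windows. GGTGGCGCT was in 13 of 14 beta genes, in 0 alpha and 0 gamma genes, and in 0.501% of all windows. GNGNCGCTGT was in 17 of 20 gamma genes, 0 alpha genes and 1 beta gene, and in 1.48% of all windows. The first base of the motif lay a median of 54.5 bases before the start in alpha, 66 in beta and 66 in gamma. Median GC content of the windows was 37.3% in alpha, 40.8% in beta and 47.3% in gamma, against 62.3% in the C-type genes and 58.7% in all windows. These matches describe sequence alone, and members at 0 such as PCDHGC3 carry the motif too.

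Upstream sequence is printed in full for the members with the highest mean level in the beta and gamma clusters, PCDHB15 and PCDHGA10. Each run is the 250 bases of the plus strand that end just before the gene start, with the cluster's motif in capitals.
PCDHB15 chr5:141245145-141245394: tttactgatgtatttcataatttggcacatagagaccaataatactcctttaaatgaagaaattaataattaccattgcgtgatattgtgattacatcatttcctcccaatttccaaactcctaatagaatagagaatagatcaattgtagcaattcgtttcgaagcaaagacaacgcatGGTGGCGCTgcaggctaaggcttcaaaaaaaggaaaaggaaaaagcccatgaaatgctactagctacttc
PCDHGA10 chr5:141412737-141412986: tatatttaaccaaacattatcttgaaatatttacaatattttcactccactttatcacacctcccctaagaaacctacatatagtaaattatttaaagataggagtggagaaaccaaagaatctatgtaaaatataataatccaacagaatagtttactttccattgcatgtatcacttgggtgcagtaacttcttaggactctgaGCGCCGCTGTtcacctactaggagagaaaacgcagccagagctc

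All 3 clusters were expressed at low levels. The 53 members together had 593, 808, 1409 and 893 counts, or 8.53, 11.5, 18.4 and 12.6 CPM. The deposited low values piled up at 4 and 8, so about 4 counts per sequenced fragment were assumed, which no source states. A member was taken as detectable in a library above 3 fragments, or 12 counts (0.173, 0.170, 0.156 and 0.169 CPM). The number of members above that level was 14, 15, 22 and 22, and 6 members, 5 beta and 1 gamma, were above it in all 4 libraries. PCDHB15 and PCDHGA10 were the 2 members with a mean of at least 1 CPM. In bulk RNA, fewer cells that use a promoter and less RNA per cell cannot be told apart.

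The beta cluster had the most counts in every library, on a scale not corrected for gene length. Its summed level was 3.98 CPM in Control (95% interval 3.09 to 5.02), 6.21 CPM in ATF7IP hairpin 1 (5.13 to 7.52), 10.6 CPM in hairpin 2 (9.12 to 12.1) and 6.76 CPM in SETDB1 knockdown (5.59 to 8.07). Intervals of levels are exact Poisson intervals, and intervals of ratios are exact binomial intervals. Both are on assumed fragments and cover counting error only. The beta sum of the ATF7IP libraries was 2.10 times Control (1.64 to 2.81), 1.56 times in hairpin 1 and 2.65 times in hairpin 2. In SETDB1 knockdown it was 1.70 times Control (1.25 to 2.32). The 2 ATF7IP libraries themselves differed by 1.70 times (1.33 to 2.15), as far apart as SETDB1 knockdown and Control, and sums were given no test.

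The gamma sum was below the beta sum in every library, and it too was lowest in Control and highest in ATF7IP hairpin 2. Control had 3.37 CPM (2.53 to 4.31), hairpin 1 had 4.48 CPM (3.55 to 5.58), hairpin 2 had 6.86 CPM (5.75 to 8.16) and SETDB1 knockdown had 4.62 CPM (3.67 to 5.72). The ATF7IP sum was 1.69 times Control (1.28 to 2.34), and the SETDB1 sum was 1.37 times Control (0.975 to 1.97). Without PCDHGA10 the ATF7IP value was 1.18 times Control (0.862 to 1.67), with hairpin 1 at 0.738 and hairpin 2 at 1.62 times Control. The alpha sum was lowest, at 1.18, 0.765, 0.938 and 1.17 CPM, and its intervals overlapped across all 4 libraries. The alpha sum was 0.722 times Control in ATF7IP knockdown (0.419 to 1.39) and 0.989 times in SETDB1 knockdown (0.529 to 2.00). As shares of all member counts, the beta cluster took 46.7%, 54.2%, 57.5% and 53.9%, the gamma cluster 39.5%, 39.1%, 37.4% and 36.8%, and the alpha cluster 13.8%, 6.68%, 5.11% and 9.29%.

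**Figure D1:**
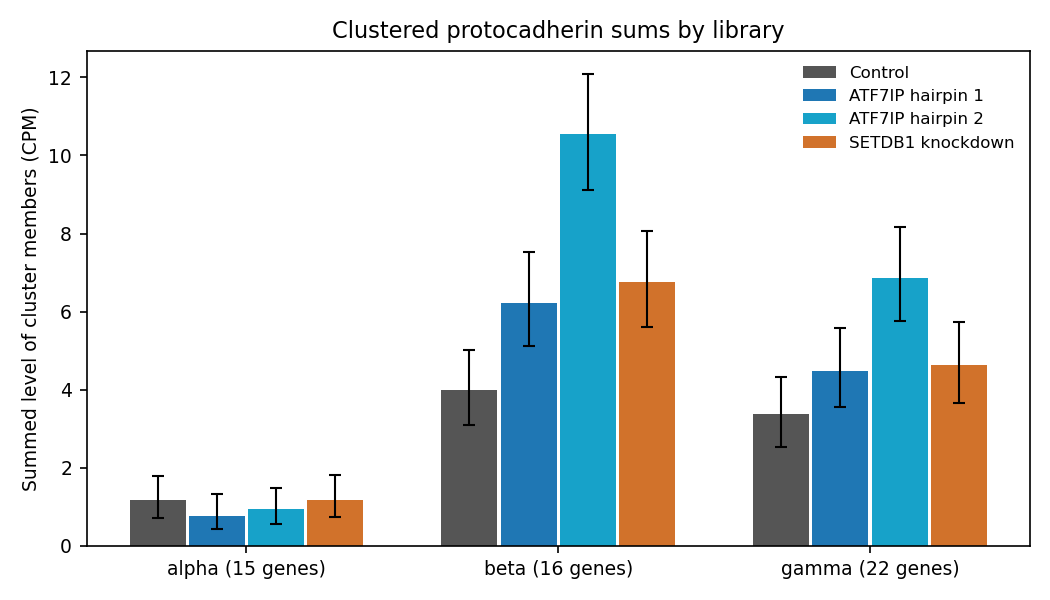
Summed CPM of the alpha, beta and gamma members (vertical axis) in each library; bars are 1 library each and error bars are 95% exact counting intervals. The beta bars run from 3.98 CPM in Control to 10.6 CPM in ATF7IP hairpin 2, while the alpha bars lie between 0.765 and 1.18 CPM.

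No member passed the test in any comparison. In edgeR's quasi-likelihood test with Benjamini-Hochberg adjustment, 0 of the 32 members tested (3 alpha, 14 beta, 15 gamma) were called for ATF7IP knockdown against Control, where 0.0769% of all 16900 tested genes were called. For SETDB1 knockdown against Control, 0 of 32 were called, against 0.0710% of genes, and for SETDB1 against ATF7IP knockdown 0 of 32, against 0.166%. At an unadjusted p under 0.05, edgeR gave 5, 2 and 4 members in these comparisons, where 8.94%, 4.71% and 9.88% of all genes passed. DESeq2 gave 4, 0 and 2 members, and limma-trend 6, 1 and 3. The share over all genes was not worked out for these other methods, so their counts have no background. The 5 members given by edgeR for ATF7IP knockdown were PCDHA11, PCDHAC2, PCDHB15, PCDHGA10 and PCDHGA11. Only the difference between the hairpins gave a measure of spread (1 residual degree of freedom), and it was taken to hold for the single Control and SETDB1 libraries as well.

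Counted by direction alone, 16 of the 42 members with a count were above Control in both ATF7IP libraries, where 30.2% of the 20670 genes with a count were. They were 9 of 15 beta, 5 of 19 gamma and 2 of 8 alpha members. Below Control in both were 7 of 42, against 34.7% of genes: 3 alpha, 4 gamma and 0 beta members. In SETDB1 knockdown, 27 of 42 were above Control, against 46.9% of genes (12 of 15 beta, 11 of 19 gamma and 4 of 8 alpha), and 11 were below, against 48.0%. Only 32 of the 42 members were above 0 in Control, against 18291 of the 20670 genes. A gene at 0 in Control could be above it but not below it. Part of the difference from all genes was therefore fixed in advance. At least 2-fold above Control in both hairpins were 7 members, against 3.96% of genes, and 4 were at least 2-fold below in both, against 5.02%. In SETDB1 knockdown 11 members were at least 2-fold above Control, against 8.99%, and 6 were at least 2-fold below, against 8.01%. These 2-fold counts used a prior count of 2 and no lower limit on level. They include members at or under 12 counts in every library, such as PCDHA7, PCDHB6, PCDHGB4, PCDHA13, PCDHA10 and PCDHAC1, where a few fragments make up the change. Of the 7 above Control in both hairpins, PCDHA7, PCDHA11, PCDHB6 and PCDHGB4 were at 0 in Control. The same held for PCDHA10, PCDHAC1, PCDHB6, PCDHGA3 and PCDHGA7 of the 11 in SETDB1 knockdown. The shares over all genes were not matched for level, so they cannot show an excess among such low members. Set against the hairpins, SETDB1 knockdown was above both for 13 members (34.3% of genes) and below both for 12 (31.5%). Both comparisons use the same Control library. Between the hairpins, 26 of 42 members were higher in hairpin 2 than in hairpin 1, against 45.8% of genes.

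PCDHB15, at chr5:141245395-141249365, was the leading beta member and had the highest level per length of all members, a mean of 0.503 CPM per kilobase of exon. It had 61, 137, 275 and 120 counts, or 0.877, 1.94, 3.58 and 1.69 CPM. Control was the lowest library, and the 2 ATF7IP libraries were both at least 2-fold above it. The log2 fold change in ATF7IP knockdown was 1.65 ± 0.54 (SE; adjusted p = 0.366, edgeR with Benjamini-Hochberg), and in SETDB1 knockdown 0.94 ± 0.58 (adjusted p = 1, edgeR). PCDHB15 took 22%, 31.3%, 34.0% and 24.9% of the beta counts. Without it the beta sum was 1.81 times Control in ATF7IP knockdown (1.35 to 2.51) and 1.63 times in SETDB1 knockdown (1.15 to 2.33). The hairpins differed in this, with hairpin 1 at 1.37 (0.952 to 1.98) and hairpin 2 at 2.24 times Control (1.63 to 3.14).

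The neighbouring adhesion genes PCDHB13 (chr5:141213919-141218979) and PCDHB14 (chr5:141223343-141227759) came next per length, at mean levels of 0.197 and 0.204 CPM per kilobase. PCDHB13 was at 0.532, 0.794, 1.59 and 1.07 CPM, with Control lowest and the 2 hairpins on either side of SETDB1 knockdown. The fitted log2 difference of ATF7IP knockdown from Control was 1.16 ± 0.62 (adjusted p = 0.665, edgeR with Benjamini-Hochberg). PCDHB14 was at 0.662, 1.19, 1.41 and 0.689 CPM, so SETDB1 knockdown lay beside Control and apart from both hairpins. Its log2 fold change in ATF7IP knockdown was 0.97 ± 0.54 (adjusted p = 0.681, edgeR with Benjamini-Hochberg).

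The other beta members of the highest mean level split by hairpin. PCDHB2 had 19, 4, 54 and 66 counts, so hairpin 1 lay below Control and hairpin 2 above it. The same order of hairpins around Control was seen in PCDHB10, with 16, 8, 50 and 31 counts. PCDHB11 had 21, 21, 56 and 24 counts, with hairpin 2 apart from the rest. PCDHB7 had 12, 12, 35 and 4 counts, with hairpin 2 above Control and SETDB1 knockdown below it. PCDHB16 was nearly level, at 31, 31, 39 and 38 counts. The remaining 7 members with a count, PCDHB3, PCDHB4, PCDHB5, PCDHB6, PCDHB8, PCDHB9 and PCDHB12, ranged from 0 to 23 counts, and PCDHB1 was at 0. Beta genes are close copies of each other, so fragments may have been divided between them, and PCDHB15 and PCDHB14 also share exon bases with another annotated transcript on their strand.

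**Figure D2:**
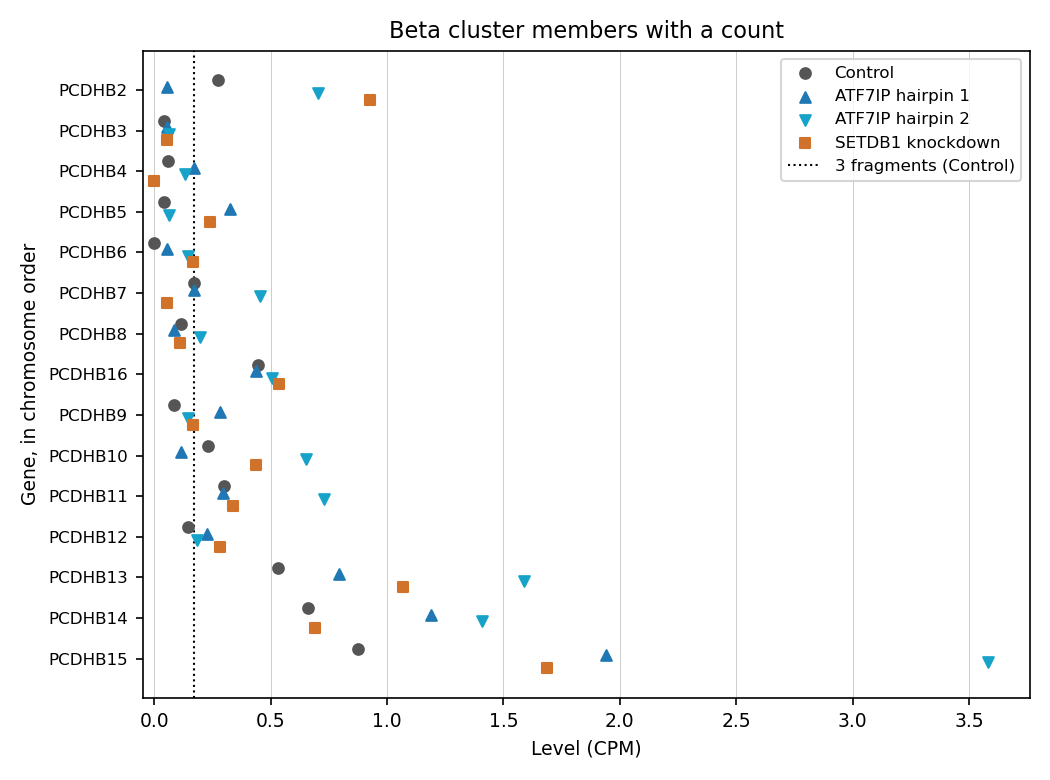
Level in CPM (horizontal axis) of the 15 beta members with a count in each library, in chromosome order; each symbol is 1 library and the dotted line marks 3 assumed fragments in Control. PCDHB15 stands to the right of the others, from 0.877 CPM in Control to 3.58 CPM in ATF7IP hairpin 2.

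In the gamma cluster, PCDHGA10 was high in both ATF7IP libraries and low in the other 2. This A-type member, with its variable exon starting at base 141412987, had 23, 158, 150 and 25 counts, or 0.331, 2.24, 1.95 and 0.351 CPM. The 2 hairpins lay close together, and SETDB1 knockdown was at the level of Control. The ratio to Control was 6.34 in ATF7IP knockdown (95% interval 2.66 to 17) and 1.06 in SETDB1 knockdown (0.261 to 3.66). The log2 fold change was 2.66 ± 0.56 in ATF7IP knockdown (adjusted p = 0.182, edgeR with Benjamini-Hochberg). The direct difference of SETDB1 from ATF7IP knockdown was -2.57 ± 0.56 (adjusted p = 0.195, edgeR with Benjamini-Hochberg), so neither passed.

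PCDHGA11, whose start at base 141421051 follows that of PCDHGB7 and PCDHGA10, had 4, 40, 50 and 38 counts, with all 3 knockdown libraries above Control. Control held about 1 fragment, so the ratio of 10.6 in ATF7IP knockdown had a counting interval of 1.68 to 428, and that of 9.28 in SETDB1 knockdown one of 1.39 to 424. The log2 fold changes were 3.37 ± 0.93 and 3.18 ± 0.99 (adjusted p = 0.288 and 0.915, edgeR with Benjamini-Hochberg). PCDHGB7, which lies between PCDHGA10 and PCDHGA11, went the other way, with 58, 7, 26 and 19 counts. Control was its highest library, and the log2 fold change in ATF7IP knockdown was -1.91 ± 0.87 (adjusted p = 0.581, edgeR with Benjamini-Hochberg).

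PCDHGB1 had 33, 8, 9 and 31 counts, low in both hairpins, with a log2 fold change of -2.02 ± 0.91 in ATF7IP knockdown (adjusted p = 0.573, edgeR with Benjamini-Hochberg). PCDHGB2 had 12, 25, 25 and 44 counts, highest in SETDB1 knockdown. PCDHGA9 had 9, 16, 66 and 19 counts, PCDHGA6 had 19, 3, 35 and 40, and PCDHGA2 had 8, 6, 45 and 21. In these 3 A-type members hairpin 2 lay well above hairpin 1. The sum of the A-type members was 1.71, 3.73, 5.61 and 3.04 CPM, or 2.73 times Control in ATF7IP knockdown (1.85 to 4.18). The B-type sum was 1.65, 0.751, 1.25 and 1.59 CPM, or 0.605 times Control in ATF7IP knockdown (0.360 to 1.02). This split by type was not planned. Without PCDHGA10 the A-type sum was 1.86 times Control in ATF7IP knockdown (1.20 to 3.09), with hairpin 1 at 1.08 and hairpin 2 at 2.65 times Control. The 5 gamma members above Control in both hairpins were PCDHGA9, PCDHGA10, PCDHGA11, PCDHGB2 and PCDHGB4. Without PCDHGA9, PCDHGA10 and PCDHGA11 the whole gamma sum was 0.851 times Control (0.602 to 1.24), with hairpin 1 at 0.508 and hairpin 2 at 1.19. Among the other 14 members, those of the C-type PCDHGC3, PCDHGC4 and PCDHGC5 were at 0, and the remaining 11 ranged from 0 to 30 counts.

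The leading alpha member was not the same in all libraries. PCDHAC2, the C-type gene closest to the constant exons (start at base 140966476), had 67, 17, 8 and 22 counts, or 0.964, 0.241, 0.104 and 0.309 CPM. It took 81.7% of the alpha counts in Control. Its ratio to Control was 0.179 in ATF7IP knockdown (0.0538 to 0.443) and 0.321 in SETDB1 knockdown (0.111 to 0.917). The log2 fold change was -2.48 ± 0.80 in ATF7IP knockdown (adjusted p = 0.366, edgeR with Benjamini-Hochberg). In SETDB1 knockdown it was -1.63 ± 0.96 (adjusted p = 1, edgeR with Benjamini-Hochberg).

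PCDHA11 was at 0, 27, 50 and 1 counts and led the alpha cluster in both ATF7IP libraries, with 50% and 69.4% of its counts. Since Control was at 0, its level was set at 3 fragments there. Hairpin 1 was at 2.21 and hairpin 2 at 3.77 times that level, counting error left aside. The exact 95% lower limit of the ratio to Control was 2.2 for both libraries together, 1.42 for hairpin 1 and 2.52 for hairpin 2. The test of edgeR gave an adjusted p of 0.237 (Benjamini-Hochberg). PCDHA1 had 11, 8, 0 and 49 counts and led in SETDB1 knockdown, with 59.0% of alpha counts. Its difference between SETDB1 and ATF7IP knockdown had a log2 fold change of 3.59 ± 1.33 (adjusted p = 0.427, edgeR with Benjamini-Hochberg). The other 5 alpha members with a count were PCDHA5 (0, 0, 2 and 0 counts), PCDHA7 (0, 2, 12 and 0), PCDHA10 (0, 0, 0 and 8), PCDHA13 (4, 0, 0 and 0) and the C-type PCDHAC1 (0, 0, 0 and 3), none above 12 counts. Without PCDHAC2 the alpha sum was 15, 37, 64 and 61 counts, 3.15 times Control in ATF7IP knockdown (1.02 to 11.7) and 3.97 times in SETDB1 knockdown (1.17 to 15.2), so PCDHAC2 turned the direction of the alpha sum. PCDHAC2 was highest in Control, so leaving it out had to raise these ratios. About 4 assumed fragments were left in Control, and most of the rest came from PCDHA11 in the ATF7IP libraries and PCDHA1 in SETDB1 knockdown.

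Alpha and gamma values depend on how fragments in shared exons were assigned, which is not given in the sources used here. In the GENCODE annotation, 19.2% to 56.6% of the exon bases of each alpha gene and 27.6% to 64.4% of each gamma gene are shared with other members, against 0% for beta genes. Many beta genes, PCDHB15 and PCDHB2 among them, overlap transcripts of the opposite strand. So do several other members, such as PCDHA1, PCDHAC2 and PCDHGB1. The use of strand in counting is not stated, so beta values carry this limit too.

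**Figure D3:**
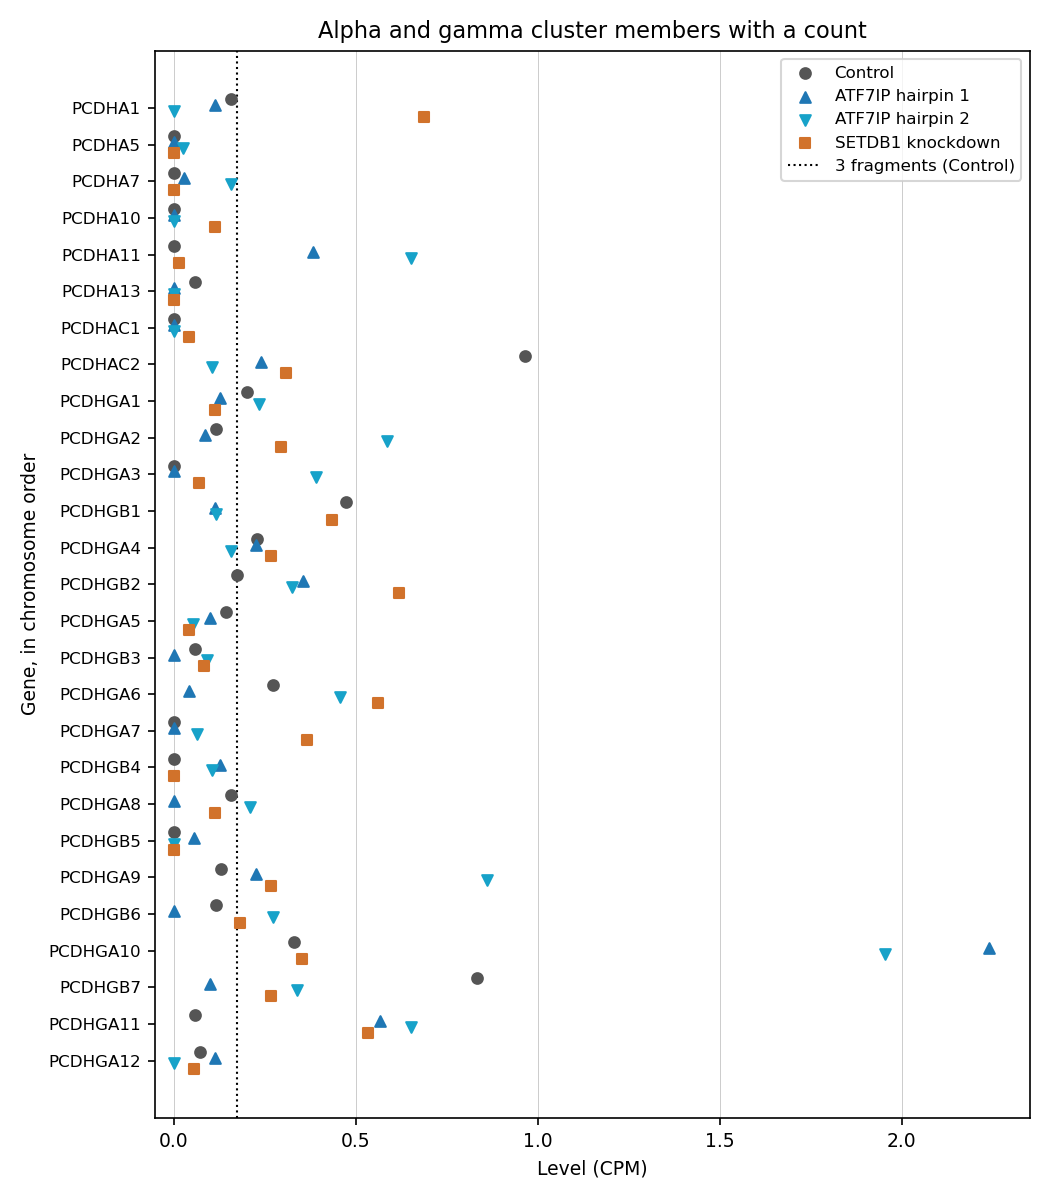
Level in CPM (horizontal axis) of the 8 alpha and 19 gamma members with a count in each library, in chromosome order; each symbol is 1 library and the dotted line marks 3 assumed fragments in Control. PCDHGA10 stands apart in both ATF7IP libraries, at 2.24 and 1.95 CPM, and PCDHAC2 and PCDHGB7 are highest in Control, at 0.964 and 0.834 CPM.

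A list of 19 genes that flank or lie between the clusters was set beside them. Of its 18 tested members, 0 were called and 0 had an unadjusted p under 0.05 in each comparison (edgeR). Their median log2 fold change was 0.01 in ATF7IP knockdown and 0.03 in SETDB1 knockdown, against 0.02 and -0.00 over all genes tested. Their summed level was 1139, 1154, 1142 and 1203 CPM. Of the highest, the actin regulator DIAPH1 was at 232, 196, 182 and 247 CPM, the transcription factor subunit TAF7, which lies between the beta and gamma clusters, at 118, 150, 155 and 125 CPM, and NDFIP1, an adaptor of ubiquitin ligases, at 140, 114, 119 and 134 CPM. These genes have far more counts than the members, so their ratios carry less counting error.

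**Figure D4:**
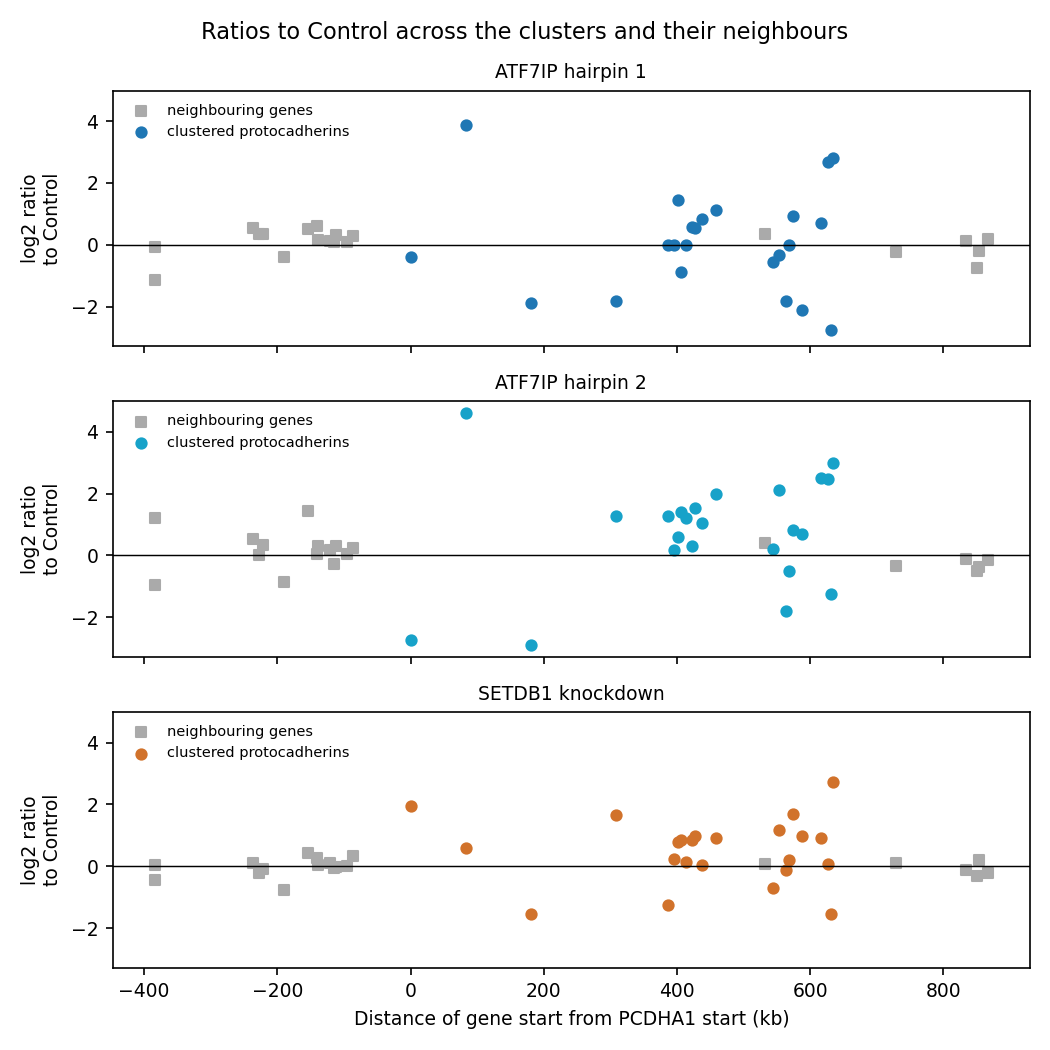
Log2 ratio to Control (vertical axis) of clustered protocadherins and flanking genes in each knockdown library, against distance of the gene start from that of PCDHA1 in kilobases. Member points spread widely on both sides of 0, as in PCDHGA10 and PCDHGB7, and flanking genes, some from outside the list above, include ANKHD1-EIF4EBP3 at -1.13 and 1.23 in hairpins 1 and 2.

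Other genes of the pathway were described by their counts. Of 23 nonclustered protocadherins and related cadherins, 12 were tested and 0 were called by edgeR in each comparison. At an unadjusted p under 0.05 (edgeR) there were 4 in ATF7IP knockdown, 0 in SETDB1 knockdown and 1 between the knockdowns. Of all genes tested, 8.94%, 4.71% and 9.88% passed in these comparisons. The median log2 fold change of the 12 was -0.30 in ATF7IP knockdown and 0.07 in SETDB1 knockdown, against 0.02 and -0.0008 over all genes tested. FAT1, a giant cadherin, was at 87.1, 60.1, 76.0 and 79.4 CPM, PCDH7 at 31.7, 18.7, 18.1 and 21.9 CPM, and PCDH9 at 16.8, 12.4, 16 and 19.3 CPM. The 4 genes in ATF7IP knockdown were PCDH7, PCDH1 and FAT4, which were below Control, and CDHR3, which was above it. PCDH1, singled out after its values were seen, also lies beyond the gamma cluster on chromosome 5, among the flanking genes, and was at 18.0, 10.7, 10.6 and 24.4 CPM. Its log2 difference of SETDB1 from ATF7IP knockdown was 1.19 ± 0.27 (adjusted p = 0.209, edgeR with Benjamini-Hochberg).  Of the cohesin and CTCF list, 14 genes were tested, and 0 were called or had an unadjusted p under 0.05 (edgeR). Its highest members were the cohesin subunits SMC1A (256, 275, 383 and 253 CPM) and RAD21 (343, 289, 253 and 256 CPM) and the cohesin regulator PDS5A (237, 196, 220 and 226 CPM).

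Of 21 repressor genes tested, 0 were called against Control in either knockdown, and 2, ATF7IP (higher) and SETDB1 (lower), were called between SETDB1 and ATF7IP knockdown. Both are the genes that the hairpins target. The heterochromatin protein gene CBX5 was at 525, 389, 490 and 462 CPM. The DNA methyltransferase gene DNMT1 was at 271, 274, 365 and 363 CPM. TRIM28, the corepressor that recruits SETDB1, was at 326, 391, 288 and 260 CPM. Of the intracellular partners, 19 were tested and 0 called by edgeR, and 2, 0 and 3 had an unadjusted p under 0.05 in the 3 comparisons, with the WAVE complex genes NCKAP1 at 271, 242, 328 and 265 CPM and WASF2 at 230, 132, 102 and 202 CPM, and the actin-binding kinase substrate MARCKS at 244, 223, 138 and 180 CPM. The 4 pseudogenes of the clusters in the table were at or under 12 counts in every library. The fibroblast marker sum, given above, was lowest in ATF7IP hairpin 2, where the beta and gamma sums were highest, and highest in Control, where they were lowest, and its part in the member values was not tested. COL3A1 made up most of that sum, at 335, 191, 155 and 155 CPM. LUM, at 81.6, 26, 25.9 and 92.5 CPM, was higher in SETDB1 knockdown than in Control. Of the 7 fibroblast markers tested, 4 had an unadjusted p under 0.05 in ATF7IP knockdown (edgeR), against 8.94% of all genes tested. Against Control 0 of them were called. LUM was called between the knockdowns (log2 difference 1.83 ± 0.23, adjusted p = 0.0247, edgeR with Benjamini-Hochberg).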

How the data were processed

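Gene counts for 4 libraries of polyA RNA were used as deposited. The deposited values are estimated counts per gene symbol, whole numbers whose totals differ between libraries. The build hg38 and the tools StringTie 2.2.1, HISAT2 2.2.1 and DESeq2 1.34.0 appear in the submitters' processing notes, with no role or order. The annotation, counting and strand settings are not given in the sources used here.

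Samples were grouped by their titles. All 4 libraries were fitted in 3 groups with the quasi-likelihood test of edgeR 4.0.16 (limma 3.58.1, R 4.3.3), after filterByExpr with a minimum count of 10 and scaling by trimmed mean of M values, with Benjamini-Hochberg adjustment over 16900 genes and calls at 0.05. With 1 residual degree of freedom, the median prior degrees of freedom were 8.09. The ATF7IP comparison was checked on simulated data, with large changes placed only in genes of a higher mean level than any member. That check therefore does not cover changes at the level of the members. Ratios of sums and of single members carry 95% exact intervals on assumed fragments (4 counts each). The log2 ratios plotted by position and the counts of members at least 2-fold from Control used a prior count of 2. Alternatives were DESeq2 1.42.0, DESeq2 size factors, limma-trend, no filter, the 2 groups compared alone, library totals, and leaving out a hairpin or the leading member.

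Named members were the 8 highest by mean CPM in each cluster, the C-type genes, any called member, and any with a mean of at least 1 CPM that was 2-fold from Control in a knockdown group. Of each other list, the 3 highest genes were eligible. Members, lists and motifs were chosen with earlier results of these data known. Exon lengths and overlaps came from GENCODE, gene positions and promoters from RefSeq.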

Additional observations from a re-analysis of the deposited data

How the results depend on the processing

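Members called stayed at 0 in each comparison under every alternative run, and the lowest adjusted p of a member was 0.0858, for PCDHGA10 with only the 2 groups compared (edgeR). Of 342 member values recomputed, 327 kept their direction. By limma-trend the log2 change turned for PCDHB2 in ATF7IP knockdown (-0.28) and for PCDHGA2 between SETDB1 and ATF7IP knockdown (0.30). For the members below, leaving out 1 hairpin turned the direction and leaving out the other did not. In ATF7IP knockdown the values without a hairpin were lowest and highest as follows, for PCDHB2 (-2.23 to 1.36), PCDHB7 (-0.021 to 1.39), PCDHB16 (-0.0211 to 0.19), PCDHB10 (-1.01 to 1.49), PCDHB11 (-0.0211 to 1.27), PCDHGA2 (-0.43 to 2.33) and PCDHGA6 (-2.63 to 0.73). PCDHGA6 turned without hairpin 1 and the others without hairpin 2. Between SETDB1 and ATF7IP knockdown the values were for PCDHB10 (-0.58 to 1.93), PCDHB11 (-1.11 to 0.18), PCDHB13 (-0.57 to 0.43), PCDHGA2 (-0.99 to 1.77), PCDHGA9 (-1.68 to 0.23) and PCDHGB7 (-0.34 to 1.41), where PCDHB10 and PCDHGB7 turned without hairpin 1 and the others without hairpin 2. The cause was not tested.

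The log2 ratio of the alpha sum to Control was 1.65 in ATF7IP and 1.99 in SETDB1 knockdown without PCDHAC2. Without PCDHGA10 the gamma sum was at 0.24 for ATF7IP knockdown against Control and 0.26 for SETDB1 against ATF7IP knockdown. Without PCDHGA9, PCDHGA10 and PCDHGA11, chosen after seeing the data like the A-type sums with and without PCDHGA10, these were -0.23 and 0.52. Leaving out either hairpin gave -0.62 to -0.33 for alpha, 0.64 to 1.41 for beta and 0.41 to 1.03 for gamma in ATF7IP knockdown against Control, and 0.31 to 0.61, -0.64 to 0.12 and -0.57 to 0.05 for SETDB1 against ATF7IP knockdown, so the last 2 changed sign.

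Genes called in all for ATF7IP knockdown were 13, with 3 by DESeq2 size factors, 1 without a filter, 160 by DESeq2, 5 by limma-trend and 34 with the 2 groups alone. For SETDB1 knockdown they were 12, with 7, 0, 48 and 6 in the first 4 of these. For SETDB1 against ATF7IP knockdown they were 28, with 11, 8, 173 and 9. DESeq2 called 1 nonclustered protocadherin between the knockdowns and 1 repressor against Control in each knockdown. The repressor list includes ATF7IP and SETDB1, the genes that the hairpins target. With the 2 groups alone, 1 repressor was called in ATF7IP knockdown. DESeq2 size factors, no filter and limma-trend each called 1 repressor between the knockdowns. No paired analysis was possible because Control and SETDB1 knockdown have 1 library each and carry no replicate number.

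Values without a hairpin are log2 differences with no test, and with Control and SETDB1 knockdown alone no residual degree of freedom is left, so that fit was not run. Depth limits the members: 2 had a mean of at least 1 CPM, and Control and SETDB1 knockdown had no replicate.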
